A study of Homo sapiens with 6 samples.

Results

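The 10 S100 calcium-binding genes S100A2, S100A3, S100A4, S100A6, S100A10, S100A11, S100A13, S100A14, S100A16 and S100P were chosen by gene symbol from tables of 53826 entries, and all 10 were among the 13181 entries with TPM above 2 in at least 1 library. A549, a human lung adenocarcinoma cell line, had been transduced with a retroviral pMXs vector that carried either TIPARP (A549-TIPARP cells) or GFP as the control (A549-GFP cells), so both lines had received a vector. The inserted TIPARP was cloned from A549 cells carrying reprogramming factors, and whether the lines were clones or mixed populations was not given in the sources used here. Total RNA of 3 libraries per line, titled as experiments 1 to 3, was sequenced on the Illumina NovaSeq platform and given as TPM, a measure of the share of all transcripts that a gene takes, corrected for transcript length. The comparison asks which of these genes differed between A549-TIPARP cells and A549-GFP cells.

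S100 proteins are small proteins that carry paired EF-hand motifs, the loops that hold calcium, and most of them act as dimers. Calcium binding exposes a surface that grips partner proteins such as annexins or parts of the cytoskeleton, and several members are also released from cells, where receptors such as RAGE (the product of AGER) can bind them. Most S100 genes sit in a cluster on the long arm of chromosome 1 beside the genes of skin barrier formation, and many epithelial tumours express them strongly. TIPARP, the gene whose level was set here, encodes a mono-ADP-ribosyltransferase that is induced by the aryl hydrocarbon receptor (AHR) and dampens its activity.

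In the GENCODE 44 annotation of hg38, 9 of the 10 genes lay on chromosome 1. S100A10 and S100A11 were between positions 151982915 and 152047907, and the other 7 were packed into 96762 bases between positions 153534599 and 153631360. S100P was alone on chromosome 4, from position 6693878 to 6697170 on the plus strand, whereas all 9 genes of chromosome 1 were on the minus strand. Exons of S100A13 overlapped those of S100A1 on the other strand and an unnamed long non-coding RNA on the same strand, and exons of S100A6 overlapped an unnamed long non-coding RNA on the other strand. Whether the quantification used the strand was not given in the sources used here, so the levels of S100A6 and S100A13 are uncertain to that extent. S100A3 lay within the span annotated for S100A4 but shared no exon with it. The 7 S100 pseudogene entries of the tables stood at the lowest listed value in all 6 libraries.

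Of the 10 genes, S100P had the largest difference between the lines over all 6 libraries (without A549-GFP replicate 2, S100A14 had, at a log2 fold change of -0.54 against -0.50 for S100P), S100A2 had the largest spread within a line, and S100A6 and S100A4 were the pair whose ratio differed most clearly between the lines. Their upstream sequences are therefore shown, as the 250 bases before the first RefSeq start of each gene (GRCh38.p14), 5′ to 3′ on the gene's own strand. The windows are chr4:6693628-6693877 (plus strand) for S100P, and on the minus strand chr1:153565845-153566094 for S100A2, chr1:153535992-153536241 for S100A6 and chr1:153545807-153546056 for S100A4. Capitals mark GCGTG, the core of the element bound by AHR, TGANTCA, the AP-1 element, and TATAAA, the TATA box.
S100P: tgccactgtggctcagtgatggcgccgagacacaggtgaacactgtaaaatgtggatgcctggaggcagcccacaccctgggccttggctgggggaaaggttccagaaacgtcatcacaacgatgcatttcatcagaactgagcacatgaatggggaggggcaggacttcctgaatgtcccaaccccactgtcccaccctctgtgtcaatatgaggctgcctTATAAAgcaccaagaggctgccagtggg
S100A2: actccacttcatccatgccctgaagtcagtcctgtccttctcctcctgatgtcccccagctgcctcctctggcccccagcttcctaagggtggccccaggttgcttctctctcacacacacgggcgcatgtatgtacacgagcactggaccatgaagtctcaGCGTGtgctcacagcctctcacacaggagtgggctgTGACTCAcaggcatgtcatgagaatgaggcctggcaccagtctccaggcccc
S100A6: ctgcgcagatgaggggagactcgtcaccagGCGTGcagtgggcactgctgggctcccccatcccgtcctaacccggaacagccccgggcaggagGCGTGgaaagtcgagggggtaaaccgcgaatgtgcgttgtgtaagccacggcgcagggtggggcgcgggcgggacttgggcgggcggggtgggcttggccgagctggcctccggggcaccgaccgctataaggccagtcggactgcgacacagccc
S100A4: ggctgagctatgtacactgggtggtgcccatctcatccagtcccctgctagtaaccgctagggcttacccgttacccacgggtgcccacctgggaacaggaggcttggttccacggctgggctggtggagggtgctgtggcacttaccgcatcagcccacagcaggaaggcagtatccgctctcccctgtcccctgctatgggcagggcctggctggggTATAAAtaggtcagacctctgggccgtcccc

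The letters GCGTG were found in the windows of 6 of the 10 genes (S100A2, S100A6, S100A10, S100A11, S100A13 and S100A16), with both strands searched, and in 7 of their 14 windows, since some genes have several starts. The same letters were present in 32.2% of all 35116 RefSeq promoter windows of that length and in 43.6% of the 14880 windows of analysed genes. S100A6 held them at 2 places, and S100P, S100A3, S100A4 and S100A14 held none. TGANTCA was present in 2 of the 14 windows, in S100A2, 52 to 46 bases before the start, and in S100A3, 225 to 219 bases before it. Of all windows 6.57% held it, and of the windows of analysed genes 4.34%. No window of the 10 genes matched the cyclic AMP element TGACGTCA, which 1.65% of all windows held, or the NF-kB letters, GGGA and TTCC with any 2 bases between them, which 1.40% held. Of the windows of analysed genes, 2.53% held the cyclic AMP element and 1.32% the NF-kB letters. TATAAA, searched on the gene strand after the sequences had been seen, stood 28 bases before the start of S100P, 31 before that of S100A4 and 29 before that of S100A13, and was present in 6.80% of all windows. These matches describe letters in the windows and not occupied sites.

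The identity of the lines and libraries was checked first. TIPARP was at 6.79, 11.4 and 3.68 TPM in the A549-GFP libraries and at 131, 90.5 and 123 TPM in the A549-TIPARP libraries (log2 fold change 4.11), and limma gave it an adjusted p-value of 0.0125. Reads of the inserted and the endogenous TIPARP could not be told apart. All 8 epithelial markers of A549 were expressed, the 4 endothelial markers and the immune markers PTPRC and CD3E were at the lowest listed value in every library, and of 5 stromal markers only COL1A1 was above it, at up to 2.56 TPM. A549-GFP replicate 2 stood apart from the other libraries, with deviations from its line mean of 0.621 (root mean square over genes, log2 scale), against 0.185 to 0.400 for the other 5. It was the highest of the 6 libraries for 52.0% of all analysed genes and the lowest for 13.7%, and values without it are therefore given below. Of the 8 epithelial markers, CDH1 (141.6 TPM) and AKR1C1 (3334 TPM) were at their highest of all 6 libraries in it, while KRT8, KRT18 and ALDH1A1 were at their lowest, with KRT8 at 3855 TPM against 6959 to 9287 TPM in the other libraries and KRT18 at 4176 TPM against 9272 to 11880 TPM. CD68, which macrophages express strongly, was at 68.1 TPM in it against 25.0 to 36.0 TPM elsewhere, and the other expressed immune marker, CD14, was at 4.98 TPM in it and highest in A549-TIPARP replicate 3 (5.63 TPM). The 4 immune markers summed to 28.1 to 73.1 TPM in A549-GFP cells and to 28.1 to 41.7 TPM in A549-TIPARP cells, and the epithelial markers to 21500 to 37400 and 33500 to 35600 TPM. The part of that library's composition in the differences below was not tested. Nothing states that the libraries came from separate cultures, so p-values measure the spread between these libraries only, and the sequencing depth is unknown. In bulk RNA, fewer cells of a kind and less RNA per cell cannot be told apart.

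The levels of the S100 genes ran from a few TPM to several of the most abundant transcripts in both lines. Their TPM summed to between 8595 and 13190 per library, which was 0.861% to 1.32% of all TPM, and S100A6 alone made up 34.3% to 47.3% of that sum. In A549-GFP cells the order of the geometric mean TPM was S100A6 (4421), S100A4 (1741), S100A11 (1478), S100A10 (1399), S100P (884), S100A16 (443.5), S100A13 (67.9), S100A14 (56.5), S100A3 (24.7) and S100A2 (5.17). The ranges of neighbouring genes overlapped from S100A4 through S100A11 and S100A10 to S100P, and between S100A13 and S100A14. In A549-TIPARP cells the order was the same but for S100A10 (1768) and S100A11 (1486), which changed places, while their ranges overlapped in both lines. In A549-TIPARP cells S100A4 (2084) and S100A10 overlapped as well, as did S100P (439.7) and S100A16 (380.9), and S100A14 (39.6) and S100A3 (24.3). S100A6 ranked between 8th and 45th of the 13181 analysed genes over the libraries, whereas S100A2 ranked between 7395th and 11369th.

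**Figure D1:**
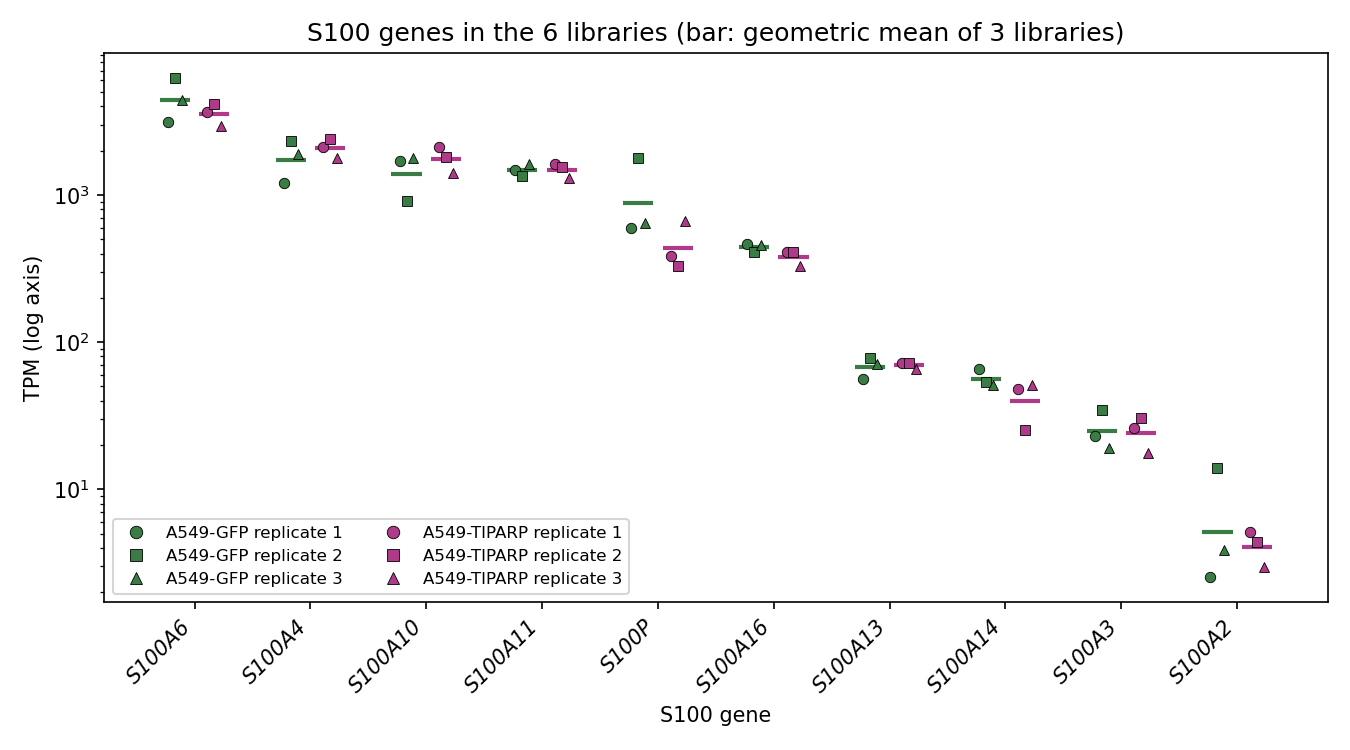
TPM (log axis) of the 10 S100 genes in each of the 6 libraries, with A549-GFP in green and A549-TIPARP in purple, symbols for the replicate and a bar at the geometric mean of 3 libraries. S100A6 was the highest gene in every library, and the green square of A549-GFP replicate 2 stands above the other libraries for S100P (1794 TPM) and S100A2 (13.97 TPM).

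None of the 10 genes differed between the lines at an adjusted p-value under 0.05 with limma, and 0.0152% of all analysed genes (2 of 13181) did. At an unadjusted p-value under 0.05, limma called 1 member lower in A549-TIPARP cells (S100P) and 0 higher, where 0.88% of all genes were called lower and 2.97% higher. S100P was also the only member past 2-fold, in the lower direction, which 0.432% of all genes were, and 0 members were more than 2-fold higher against 1.53% of all genes. For no member did the 3 A549-TIPARP libraries all lie above or all lie below the A549-GFP libraries, although 5.36% of all genes were separated upward and 3.54% downward. Without A549-GFP replicate 2, 21.2% of all genes were separated upward and 6.42% downward, and 1 member (S100A16) was separated, downward. The share of genes called higher at an unadjusted p-value under 0.05 (limma) was then 9.30%, again with 0 members. The mean was lower in A549-TIPARP cells for 6 of the 10 members, about the same share as the 59.9% of all genes, and after each library was rescaled by its median ratio the share over all genes was 50.2% and S100A3 turned to a log2 fold change of 0.04. The median log2 fold change of the members was -0.12, and that of all analysed genes was -0.07. Without A549-GFP replicate 2 the medians were -0.02 and 0.05, and the mean was lower for 5 of the 10 members and for 42.6% of all genes.

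**Figure D2:**
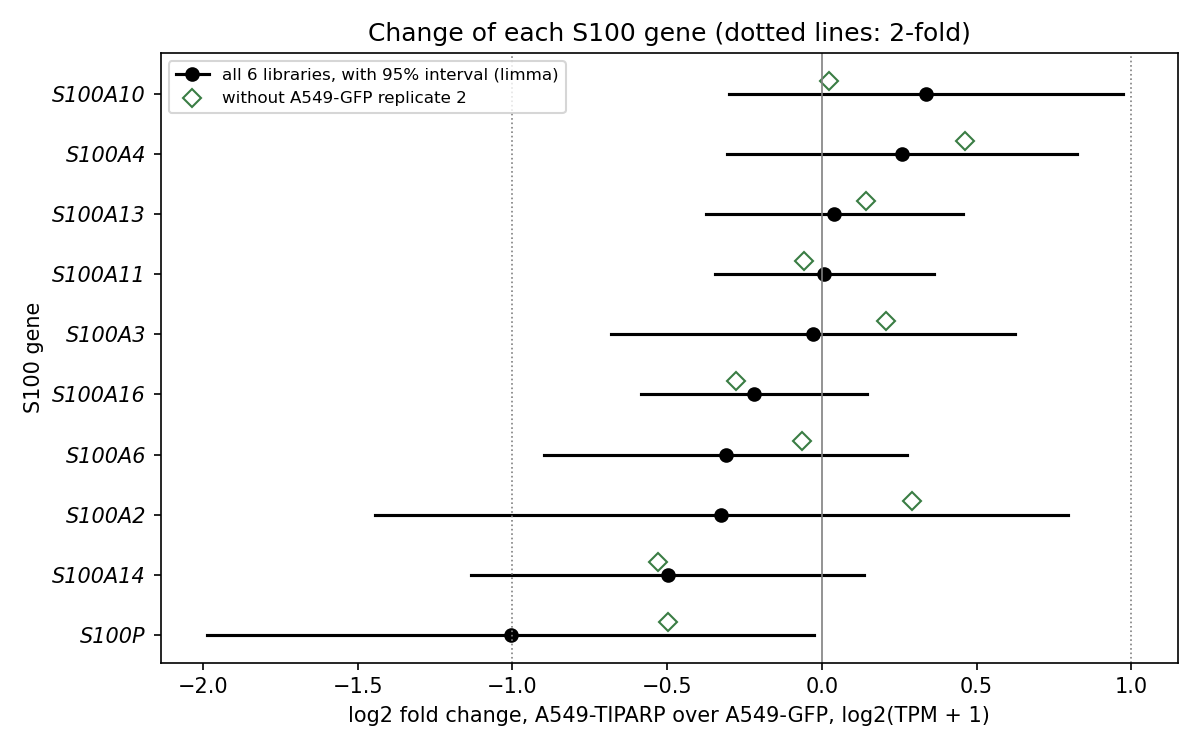
The log2 fold change of each S100 gene, A549-TIPARP over A549-GFP, from limma on log2(TPM + 1). Black points and lines give the estimate and its 95% interval from all 6 libraries, and open green diamonds the estimate without A549-GFP replicate 2. Only the interval of S100P (-1.99 to -0.02) leaves out 0, and its diamond stands at -0.50.

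S100P, which was first found in placenta, is secreted by many carcinomas and binds ezrin inside the cell and RAGE outside it. Its levels were 600, 1794 and 642 TPM in the A549-GFP libraries and 388, 328 and 668 TPM in the A549-TIPARP libraries. A549-GFP replicate 2 was 2.89-fold above the other A549-GFP libraries, and A549-TIPARP replicate 3 lay above both of those others, so the lines overlapped. The geometric mean was 2.01-fold lower in A549-TIPARP cells, a log2 fold change of -1.01 with a standard error of 0.43 (limma, unadjusted p-value 0.0458, adjusted p-value 0.994). Without A549-GFP replicate 2 the log2 fold change was -0.50 (limma, unadjusted p-value 0.161), and over the 6 fits that each left out a library it ran from -1.31 to -0.50. The unadjusted p-value (limma) was also above 0.05 without a filter (0.0745), after rescaling by the median ratio (0.0568), with a GC correction (0.0532), without a variance trend (0.0550) and with the replicate number as a block (0.0833). Leaving out A549-GFP replicate 3 (0.0545), A549-TIPARP replicate 1 (0.107) or A549-TIPARP replicate 2 (0.136) had the same effect on that call. The difference of S100P between the lines did not pass an adjusted p-value of 0.05 once all analysed genes were taken into account (limma). Past 2-fold it stood only narrowly, since rescaling of the libraries by their median ratio gave -0.94 and a correction for GC content -0.96. Of the partners inside the cell, EZR and S100PBP overlapped between the lines. Ezrin (EZR) was at 351, 279 and 270 TPM in A549-GFP cells against 289, 304 and 210 TPM in A549-TIPARP cells, and the binding protein gene S100PBP stayed between 8.18 and 10.9 TPM in all 6 libraries.

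S100A6 and S100A4 lie close together in the cluster, and both are known for their high levels in proliferating and invasive cells. S100A6, also called calcyclin, binds the ubiquitin ligase adaptor CACYBP, and S100A4, also called metastasin, binds the non-muscle myosin heavy chain MYH9. S100A6 was at 3123, 6236 and 4437 TPM in A549-GFP cells against 3690, 4157 and 2952 TPM in A549-TIPARP cells (log2 fold change -0.31, 95% interval -0.90 to 0.28). S100A4 was at 1205, 2310 and 1894 TPM in A549-GFP cells against 2104, 2419 and 1777 TPM in A549-TIPARP cells (log2 fold change 0.26, 95% interval -0.31 to 0.82). Each gene overlapped between the lines, with A549-GFP replicate 1 the lowest library for S100A4 and A549-GFP replicate 2 the highest for S100A6. Without A549-GFP replicate 2 the log2 fold changes were -0.06 for S100A6 and 0.46 for S100A4. With A549-GFP replicate 1 left out instead, they were -0.56 for S100A6 (limma, unadjusted p-value 0.0361, adjusted p-value 0.998) and -0.01 for S100A4.

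The ratio of S100A6 to S100A4 within a library varied less between the libraries of a line than either gene did. It was 2.59, 2.70 and 2.34 in the A549-GFP libraries and 1.75, 1.72 and 1.66 in the A549-TIPARP libraries, with no overlap. The mean log2 ratio was 1.34 ± 0.11 (SD, n = 3) in A549-GFP cells and 0.77 ± 0.04 (SD, n = 3) in A549-TIPARP cells, a difference of -0.57 that was -0.53 without A549-GFP replicate 2. An exact permutation test of the 3 against 3 log2 ratios (two-sided) gave p = 0.10, which is the smallest p-value this design allows, so it cannot reach 0.05. The pair was singled out after its values had been seen. Of the 45 pairs of members, 3 had ratios that did not overlap between the lines (6.67%), while 13.3% of all pairs of analysed genes were separated in either direction, a share of members below that background. Without A549-GFP replicate 2 the counts were 11 of the 45 pairs (24.4%) and 32.6% of all pairs. The other pairs were S100A10 to S100A16, at 3.65, 2.21 and 3.89 in A549-GFP cells and 5.20, 4.44 and 4.33 in A549-TIPARP cells, and S100A11 to S100A16, at 3.18, 3.30 and 3.53 against 3.96, 3.75 and 4.01. The gap between the closest libraries of the lines was 0.42 on the log2 scale for S100A6 to S100A4, against 0.16 and 0.09 for the other pairs.

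**Figure D3:**
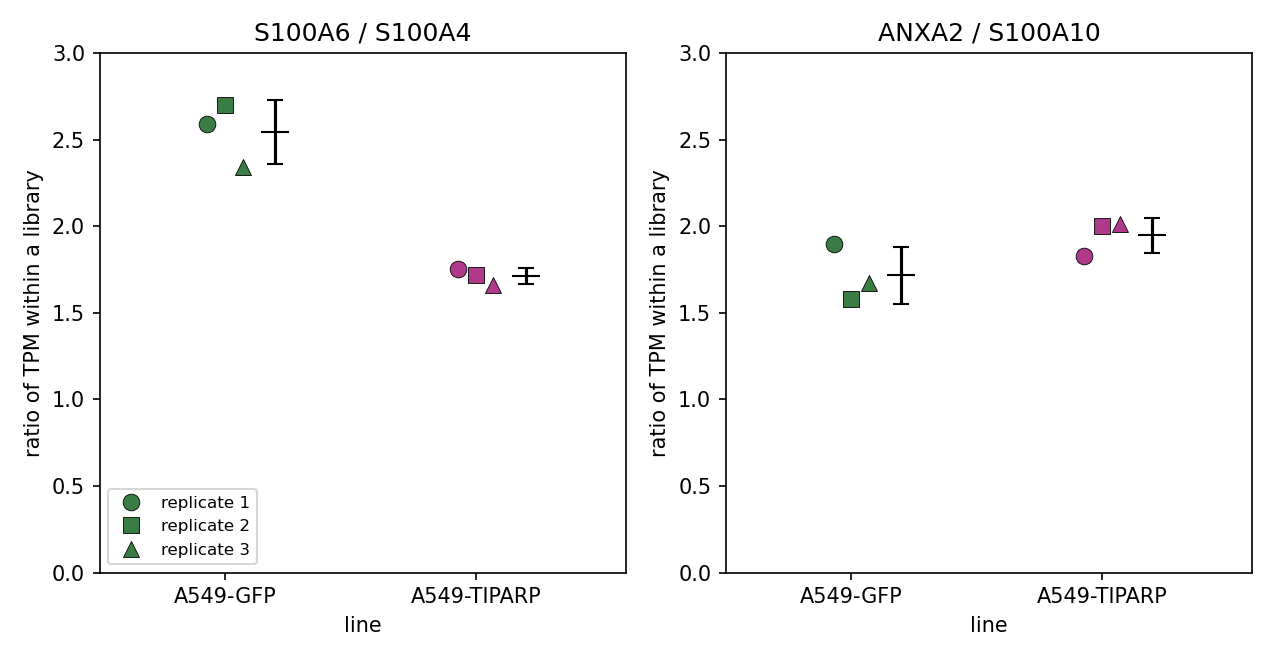
Ratio of TPM within each library for S100A6 to S100A4 (left) and ANXA2 to S100A10 (right), with both axes starting at 0, symbols for the replicate, and the mean with its SD over 3 libraries in black. The left ratio is 2.34 to 2.70 in A549-GFP cells and 1.66 to 1.75 in A549-TIPARP cells, whereas on the right the lines overlap.

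S100A10 and S100A11 are the annexin partners of the family. S100A10, also called p11, does not respond to calcium and joins annexin A2 in a heterotetramer at the plasma membrane that binds plasminogen activators. S100A11 binds annexin A1. S100A10 was at 1697, 905 and 1785 TPM in A549-GFP cells against 2134, 1824 and 1420 TPM in A549-TIPARP cells (log2 fold change 0.34, 95% interval -0.30 to 0.97). A549-GFP replicate 2 was 1.92-fold below the other A549-GFP libraries, and without it the log2 fold change was 0.02. S100A11 was the steadiest of the abundant members, at 1476, 1351 and 1620 TPM in A549-GFP cells against 1624, 1540 and 1313 TPM in A549-TIPARP cells (log2 fold change 0.01, 95% interval -0.35 to 0.36).

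Annexin levels are given beside those of their partners. ANXA2 was at 3228, 1425 and 2979 TPM in A549-GFP cells against 3896, 3651 and 2849 TPM in A549-TIPARP cells, so its lowest library was A549-GFP replicate 2, as for S100A10. The ratio of ANXA2 to S100A10 was 1.90, 1.58 and 1.67 in A549-GFP cells and 1.83, 2.00 and 2.01 in A549-TIPARP cells, and it spanned a narrower range than either gene. ANXA1 was at 1767, 742 and 1681 TPM in A549-GFP cells against 1665, 2071 and 1301 TPM in A549-TIPARP cells. Unlike ANXA1, S100A11 was close to its usual level in A549-GFP replicate 2, and the ratio of ANXA1 to S100A11 was 0.549 there against 0.991 to 1.34 in the other libraries. Of the ligands of the S100A10 complex, only PLAT (tissue plasminogen activator) and PLG (plasminogen) were on the list, at up to 1.06 and 2.43 TPM.

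S100A16, a broadly expressed member, and S100A14, an epithelial member, lie side by side on chromosome 1. S100A16 was at 464, 409 and 459 TPM in A549-GFP cells against 410, 411 and 327 TPM in A549-TIPARP cells (log2 fold change -0.22, 95% interval -0.58 to 0.15). The lowest A549-GFP library, replicate 2, lay just below the highest A549-TIPARP libraries, and without it the lines did not overlap (log2 fold change -0.28, limma, unadjusted p-value 0.0991). S100A14 was at 65.5, 54.0 and 50.8 TPM in A549-GFP cells against 48.2, 25.3 and 51.0 TPM in A549-TIPARP cells (log2 fold change -0.51, 95% interval -1.13 to 0.14). Its low library was A549-TIPARP replicate 2, and A549-TIPARP replicate 3 lay just above the lowest A549-GFP library. Without A549-TIPARP replicate 2 the log2 fold change of S100A14 was -0.19.

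S100A13 takes part in the release of FGF1 and interleukin 1 alpha, which lack a signal peptide. It was at 56.2, 78.4 and 71.0 TPM in A549-GFP cells against 72.0, 72.0 and 65.9 TPM in A549-TIPARP cells, and its log2 fold change was 0.04 (95% interval -0.38 to 0.46). Both of its cargo genes, FGF1 and IL1A, were at the lowest listed value in all 6 libraries. S100A3, a cysteine-rich member best known from the hair cuticle, was at 23.0, 34.8 and 19.0 TPM in A549-GFP cells against 26.2, 30.7 and 17.7 TPM in A549-TIPARP cells. Its log2 fold change was -0.03 (95% interval -0.68 to 0.63), and replicate 2 was the highest library of each line.

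S100A2, a member best known from squamous epithelium, was the least abundant and, in A549-GFP cells, the most variable (SD of the log2 TPM 1.28). In A549-TIPARP cells its SD was 0.40, below those of S100A14 (0.56), S100P (0.54) and S100A3 (0.41). S100A2 was at 2.53, 13.97 and 3.90 TPM in A549-GFP cells against 5.10, 4.42 and 2.99 TPM in A549-TIPARP cells. A549-GFP replicate 2 was 4.45-fold above the other A549-GFP libraries, and the log2 fold change turned from -0.34 (limma 95% interval -1.44 to 0.79) to 0.37 without it. The direction of S100A2 thus rested on that library.

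**Figure D4:**
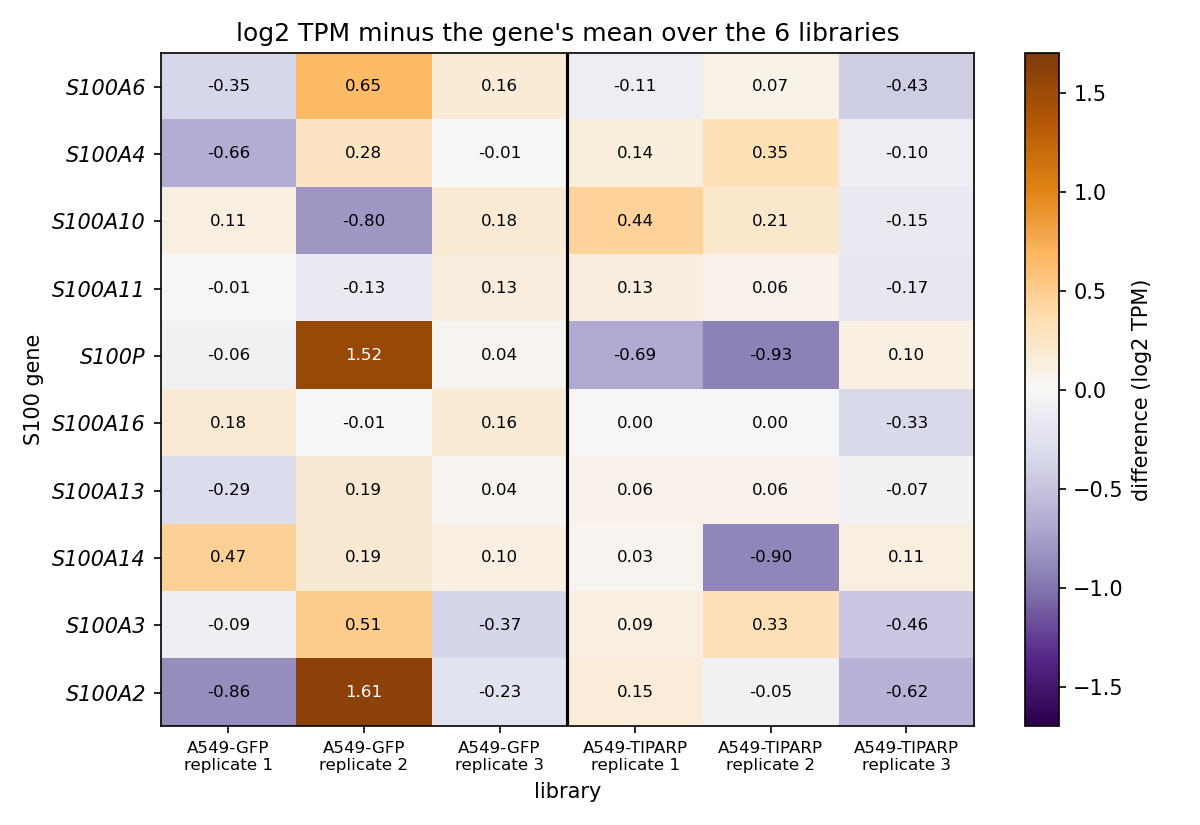
Difference of each S100 gene's log2 TPM from its mean over the 6 libraries, one row per gene and one column per library, with orange above and purple below the mean. A549-GFP replicate 2 holds the highest values, 1.61 for S100A2 and 1.52 for S100P, and -0.80 for S100A10, the lowest values are -0.93 for S100P and -0.90 for S100A14 in A549-TIPARP replicate 2, and S100A11 and S100A16 stay close to their means there.

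The members that stood out in A549-GFP replicate 2 did so in both directions. A549-GFP replicate 2 was the highest of the 6 libraries for 5 members (S100A2, S100A3, S100A6, S100A13 and S100P) and the lowest for 1 (S100A10), near the shares over all genes given above. S100A11 and S100A16 differed from their means over the 6 libraries by -0.13 and -0.01 on the log2 scale in it. The SD of the log2 TPM was larger in A549-GFP cells than in A549-TIPARP cells for 7 of the 10 members, against 79.6% of all analysed genes. The median SD of the members was 0.46 in A549-GFP cells and 0.27 in A549-TIPARP cells, and that of all genes was 0.39 and 0.19.

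The rest of the family was nearly silent. Of 11 further S100 symbols, 10 matched an entry, and 8 of these did not pass the filter, with S100A7, S100A8, S100A12 and S100B at the lowest listed value in every library. S100A9, which forms calprotectin with S100A8 in myeloid cells, was at 6.03, 6.98 and 9.24 TPM in A549-GFP cells against 3.70, 2.05 and 6.08 TPM in A549-TIPARP cells. The lines overlapped by a narrow margin, between 6.03 and 6.08 TPM. Its log2 fold change was -1.02 (limma on log2(TPM + 1), -0.83 with a standard error of 0.33, unadjusted p-value 0.0331, adjusted p-value 0.994). Unlike that of S100P it was as large without A549-GFP replicate 2 (-1.06), at an unadjusted p-value of 0.0678 (limma). Over the fits that each left out a library, it ran from -1.40 to -0.62. The unadjusted p-value (limma) ran from 0.00896 to 0.144, so it too was above 0.05 in some of those fits. S100A1 was between 1.89 and 6.32 TPM, with a log2 fold change of -0.04.

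Of 22 listed partners and receptors of S100 proteins, 18 passed the filter, 10 with a higher and 8 with a lower mean in A549-TIPARP cells. None passed an adjusted p-value of 0.05 with limma, and 2 passed an unadjusted p-value of 0.05, both of them annexins with higher levels in A549-TIPARP cells, where 2.97% of all genes were called higher. The same 2 were the only partners separated upward between the lines, as 5.36% of all genes were. ANXA5, which binds phosphatidylserine at membranes, was at 348, 360 and 291 TPM in A549-GFP cells against 462, 485 and 436 TPM in A549-TIPARP cells, with no overlap (log2 fold change 0.48, limma, unadjusted p-value 0.0139, adjusted p-value 0.966). ANXA6 was at 18.9, 10.3 and 23.2 TPM in A549-GFP cells against 29.2, 28.8 and 29.1 TPM in A549-TIPARP cells, again with no overlap (log2 fold change 0.81, limma, unadjusted p-value 0.0253). Without A549-GFP replicate 2 the log2 fold changes were 0.54 for ANXA5 and 0.47 for ANXA6, and with other libraries left out the unadjusted p-values (limma) reached 0.0611 for ANXA5 and 0.0671 for ANXA6. The receptor gene AGER was low throughout, at 2.30, 3.14 and 2.25 TPM in A549-GFP cells against 3.30, 2.85 and 4.36 TPM in A549-TIPARP cells, and it did not overlap between the lines without A549-GFP replicate 2 (log2 fold change 0.60, limma, unadjusted p-value 0.0456, adjusted p-value 0.466). TLR4 was at the lowest listed value in all 6 libraries. CACYBP, the partner of S100A6, overlapped between the lines (log2 fold change -0.15), as did MYH9, the partner of S100A4 (0.12).

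The neighbourhood of the cluster held few expressed genes. Of 80 other entries on chromosome 1 between S100A10 and S100A1 or within 200 kb of either end, 69 were at the lowest listed value in all 6 libraries. Among these were the skin barrier genes IVL and FLG, and the small proline-rich and late cornified envelope genes. The other 11 passed the filter, with 4 higher and 7 lower means in A549-TIPARP cells and none at an unadjusted p-value under 0.05 with limma. The S100 genes on chromosome 1 thus stood at up to 6236 TPM within a stretch where most other entries were not listed above the lowest value.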

How the data were processed

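RNA-seq was performed by the authors on 3 libraries of A549-GFP cells and 3 of A549-TIPARP cells. The alignment, against hg38 transcripts, was made in the Strand NGS software with its default settings. Per library, the authors deposited a table of log2 TPM for 53826 entries, in which TPM below 1 had been set to 1, and no read counts or depth. Treatment of reads that match several genes was not given in the sources used here. Lines and replicate numbers were taken from the sample titles.

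Entries with TPM above 2 in at least 1 library were kept, as in the study. Fold changes are differences of mean deposited log2 values. limma 3.58.1 in R 4.3.3, with a mean-variance trend and p-values adjusted by Benjamini-Hochberg over the 13181 genes, was run on log2(TPM + 1) without a block, and was tested on simulated data. A pseudocount of 1 understates the change of low genes. Count-based tests could not be run. Exact permutation tests used scipy 1.17.1. Coordinates are those of GENCODE 44, and promoters those of RefSeq (all 10 members matched). A search for EF-hand loops was planned, but protein sequences were not used here.

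The 10 members, the other lists and their tests were chosen with earlier results of these data known, so no list is independent evidence of its direction. Named are all members, TIPARP and, of each list, genes past an unadjusted p-value of 0.05 or 2-fold and direct partners of a member. Other genes (some cell type markers, the silent genes and the ratio pairs) are named with their values already known. Results for some entries of the lists are not reported here.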

Additional observations from a re-analysis of the deposited data

How the results depend on the processing

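Over 15 alternatives (another pseudocount, the deposited log2 scale, a pseudocount of 1 in the fold change, which was chosen after seeing the data, a stricter filter or none, median-ratio rescaling, a GC correction, limma without a trend, the replicate block and each library left out in turn), 141 of the 150 member values kept their direction and their side of an adjusted p-value of 0.05. The lowest adjusted p-value of a member was 0.568 (limma), and 0 members passed in any of them. The directions that turned were those of S100A3 after rescaling (0.036) and, with single libraries left out, of S100A2 (-0.86 to 0.37), S100A3 (-0.22 to 0.22), S100A4 (-0.0057 to 0.46), S100A11 (-0.057 to 0.10) and S100A13 (-0.0945 to 0.15). The count of members past 2-fold lower (S100P) went from 1 to 0 with rescaling and with the GC correction, and was 0 to 1 with libraries left out. The count lower at an unadjusted p-value under 0.05 (limma) went from 1 to 0 without a filter, with rescaling, with the GC correction, without a trend and with the replicate block, and was 0 to 2 with libraries left out (S100P, and S100A6 without A549-GFP replicate 1). Over all genes, the 2 genes at an adjusted p-value under 0.05 (limma) became 1 without a filter and with the replicate block, and 1 to 3 with libraries left out. TIPARP kept a log2 fold change of 4.11, with adjusted p-values of 0.0965 without a filter and 0.513 with the replicate block (limma), and ran from 3.69 to 4.50 with libraries left out, at adjusted p-values of 0.0331 to 0.192 (limma). It passed 0.05 in 8 of the 15 alternatives. The causes were not tested. The experiment numbers are shared by the lines, but deviations of same-numbered libraries correlated at 0.415, -0.486 and -0.358, so they were not taken to pair the samples. Depth is unknown, and TPM below 1 cannot be compared.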
